A study of Mus musculus with 10 samples.

Results

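Gene expression in the duodenum was compared with that in the jejunum, both taken from mice after vertical sleeve gastrectomy (VSG). The series holds 10 RNA-seq libraries, made from stomach, duodenum, jejunum, ileum and colon after VSG or after a sham operation, and this comparison rests on 2 of them, VSG duodenum and VSG jejunum, with 1 library each. Of 23079 genes in the table, 12189 had a mean of at least 1 RPKM over both libraries (reads normalised to gene length and to library depth) and were kept. A gene was called higher or lower where log2((duodenum RPKM + 1)/(jejunum RPKM + 1)) reached 1 in size, a difference of 2-fold on that scale, on which the added 1 RPKM understates differences of genes at low levels. A gene under 1 RPKM in 1 library was kept only through the other, which favoured a call in that direction. With 1 library per segment there was no replicate check and no test, and the 95% intervals given for ratios cover counting error only.

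All mice were male C57BL/6J, 17 weeks old, and were kept on high-fat food for 13 weeks, then fasted overnight before the operation. VSG removed the lateral 80% of the stomach and left a tube of about 20% of it. In the sham operation the peritoneal cavity was opened and the stomach was pressed with hemostats. Mice drank a liquid diet for the first 3 days and then returned to the high-fat diet. Both segments compared here came from mice with the same operation, so surgery does not differ between them. The labels do not give the number of animals behind a library, whether both segments came from the same animals, how far along the gut each segment was cut, or the time of tissue collection after the operation.

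The duodenum receives acid from the stomach and bile and enzymes from the pancreatic and bile ducts. Brunner's glands, mucous glands under its mucosa, open into its first part and secrete mucin and bicarbonate. Its absorptive cells are known as the main site of uptake of iron, calcium and folate, while the jejunum behind it takes up most sugars, amino acids and fat. Paneth cells at the base of the crypts secrete defensins and lysozyme, and in the mouse they become more numerous towards the ileum.

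Recovered read totals were 68321506 in VSG duodenum and 36053969 in VSG jejunum. The sham jejunum library, with 41650867 recovered reads, gave another level of the same tissue, and differences are given against it too. The library labelled sham duodenum held 2.45 RPKM of Fabp1, the fatty acid binding protein of enterocytes, and 498 RPKM of Snap25, a protein of nerve terminals, and it was not used. VSG duodenum and VSG jejunum held 7109 and 7404 RPKM of Fabp1 and 3.37 and 1.99 RPKM of Snap25, so the enterocyte gene prevailed in both. Pdx1, a transcription factor of duodenum and pancreas, had 67.5 RPKM in VSG duodenum and 1.59 RPKM in VSG jejunum. The mucin Muc6, of gastric and Brunner's glands, had 399 RPKM in VSG duodenum and 0.107 RPKM in VSG jejunum. Both lay on the side of the duodenum label, but they are among the 15 largest differences and other tissues express them, so they are no independent check.

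VSG duodenum had 334 of the 12189 genes at least 2-fold higher than VSG jejunum, which is 2.74%, and 116 genes at least 2-fold lower, which is 0.952%. Against both jejunum libraries at once, which share the duodenum library, 218 genes (1.79%) were at least 2-fold higher and 68 genes (0.558%) at least 2-fold lower. At 4-fold the counts against VSG jejunum were 92 higher and 45 lower. For scale, VSG jejunum and sham jejunum, which are the same segment, differed by 2-fold or more in 126 of the same genes (1.03%), of which 94 (0.771%) were higher and 32 (0.263%) lower in VSG jejunum.

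The median difference over all genes kept was 0.29 on the log2 scale, and 90% of the genes lay between -0.18 and 0.78, so the typical gene stood slightly higher in VSG duodenum on the authors' scaling, and the differences below are read against that median. Of the called genes, 74.2% were higher in VSG duodenum. When both libraries were rescaled to 1 total of recovered reads, the median was 0.06 and 206 genes were higher and 150 lower, 57.9% higher. Leaving the 10 highest genes of either library out of the total gave 56.1% higher. At the threshold itself, Gpr155 at 1.001 and Serpina1c at -1.011 lay just inside, and Snord55 at 0.9992 and Retnlg at -0.9882 just outside.

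**Figure D1:**
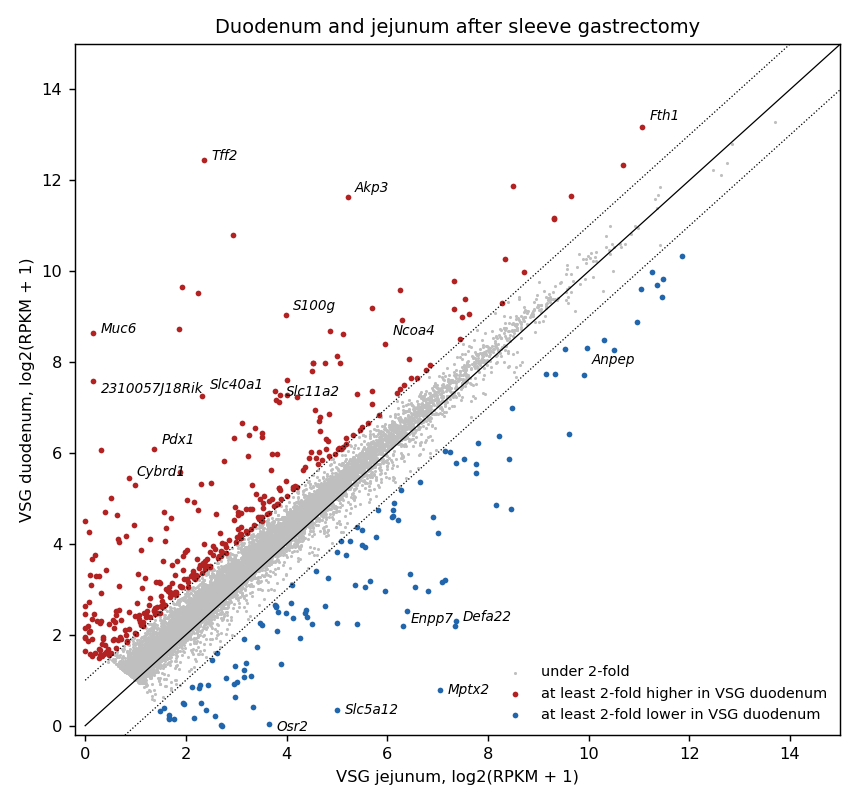
Level of each of the 12189 genes in VSG duodenum (vertical axis) against VSG jejunum (horizontal axis), both as log2(RPKM + 1), 1 library each. Red points are the 334 genes at least 2-fold higher in VSG duodenum, blue points the 116 at least 2-fold lower, the solid line marks equal levels and the dotted lines 2-fold, and Tff2 and Muc6 stand farthest above the line and Mptx2 farthest below it.

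The largest differences were those of mucous gland genes. Of 23 genes of Brunner's glands and of the gastric mucous lining that were kept, of 26 listed, 20 were higher in VSG duodenum against either jejunum library and none was lower, with a median difference of 3.53, against 0.29 over all genes. Members under 1 RPKM in VSG jejunum, such as Muc6, A4gnt and Aqp5, were kept only through VSG duodenum. The filter thus favoured a call of higher for them, and this count and this median are given only as a description. Of the 15 genes with the largest difference in the whole table, 9 belonged to this list. In such bulk samples, more cells of a type and more RNA per cell cannot be told apart.

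Tff2, on chromosome 17 (GRCm38, chr17:31141062-31144282), encodes a trefoil peptide that is secreted with gland mucin. It had 5582 RPKM in VSG duodenum, against 4.10 RPKM in VSG jejunum and 2.75 RPKM in sham jejunum, a ratio of 1360.0 over VSG jejunum (95% interval 1013 to 1872). Muc6 (chr7:141633459-141655393), the mucin of gastric and Brunner's glands, had 399 RPKM in VSG duodenum, against 0.107 RPKM in VSG jejunum and 0.130 RPKM in sham jejunum, a difference of 8.50. A4gnt, the enzyme that adds terminal N-acetylglucosamine to this mucin, had 31.3 RPKM in VSG duodenum, against 0.425 RPKM in VSG jejunum and 0.145 RPKM in sham jejunum. Mucin, its packing peptide and its glycosylating enzyme were thus all high in VSG duodenum and near zero in both jejunum libraries.

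The water channel Aqp5, found in secretory gland cells, had 21.7 RPKM in VSG duodenum and no read in VSG jejunum or sham jejunum, which makes it at least 464-fold higher than VSG jejunum when a floor of 3 reads is taken for that library. Gkn3, a gastrokine, had 1787 RPKM in VSG duodenum, against 6.65 RPKM in VSG jejunum and 10.1 RPKM in sham jejunum. Spdef and Agr2, a transcription factor and a protein disulfide isomerase of mucus-secreting cells that goblet cells express too, differed less. Agr2 had 533 RPKM in VSG duodenum, against 195 RPKM in VSG jejunum and 189 RPKM in sham jejunum. Spdef had 23.9 RPKM in VSG duodenum, against 7.18 RPKM in VSG jejunum and 8.17 RPKM in sham jejunum.

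Genes of the gastric surface lining were also higher. Gkn2, a gastrokine of pit cells, had 806 RPKM in VSG duodenum, against 2.81 RPKM in VSG jejunum and 2.63 RPKM in sham jejunum. Tff1, the trefoil peptide of pit cells, had 732 RPKM in VSG duodenum, against 3.73 RPKM in VSG jejunum and 3.44 RPKM in sham jejunum. Gkn1 had 425 RPKM in VSG duodenum, against 2.66 RPKM in VSG jejunum and 2.25 RPKM in sham jejunum. Set beside the stomach libraries, these pit cell genes lay far below them, while the gland genes were divided.

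Muc6, Tff2 and Gkn3 stood higher in VSG duodenum than in either stomach library, with Muc6 at 180.3 and 285 RPKM and Tff2 at 5244 and 2941 RPKM in VSG and sham stomach. For Tff2, at 5582 RPKM in VSG duodenum, the gap to VSG stomach was small. The stomach is only a rough reference here: VSG stomach held 5128 RPKM of the liver gene Alb, and sham stomach 92218 RPKM of the pepsinogen Pgc. Aqp5, Agr2 and Spdef lay between the stomach libraries. The gland gene A4gnt, at 36.7 RPKM in VSG stomach and 51.1 RPKM in sham stomach, was among the 14 of the 20 higher genes that lay below both. For 9 of these, led by pit cell genes, VSG duodenum was over 10-fold below both: Gkn2 had 9668 RPKM in VSG stomach and 18198 RPKM in sham stomach. Muc5ac, the mucin of pit cells, had 11.7 RPKM in VSG duodenum and 0.10 RPKM in VSG jejunum, while it had 176 RPKM in VSG stomach and 503 RPKM in sham stomach.

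Genes of acid-secreting and enzyme-secreting gastric cells were mostly at low levels. Of 17 listed, 8 were kept, 2 were higher in VSG duodenum and none was lower, with a median difference of 0.46. Atp4a, the catalytic subunit of the acid pump, had 0.524 RPKM in VSG duodenum, against 0.278 RPKM in VSG jejunum and 0.403 RPKM in sham jejunum, with 53.0 RPKM in VSG stomach and 2093 RPKM in sham stomach. The 2 higher genes were Car2 and Pgc, which other epithelia are known to express too. Car2, a cytosolic carbonic anhydrase found also in duodenal epithelium, had 149 RPKM in VSG duodenum, against 17.6 RPKM in VSG jejunum and 21.4 RPKM in sham jejunum. Pgc, a pepsinogen that human Brunner's glands also make, had 85.3 RPKM in VSG duodenum, against 10.4 RPKM in VSG jejunum, 12.3 RPKM in sham jejunum, 1376 RPKM in VSG stomach and 92218 RPKM in sham stomach. The summed level of the list was 269 RPKM in VSG duodenum, 51.8 RPKM in VSG jejunum and 56.7 RPKM in sham jejunum. The part of stomach tissue at the pylorus in the pit cell genes of VSG duodenum was not tested.

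**Figure D2:**
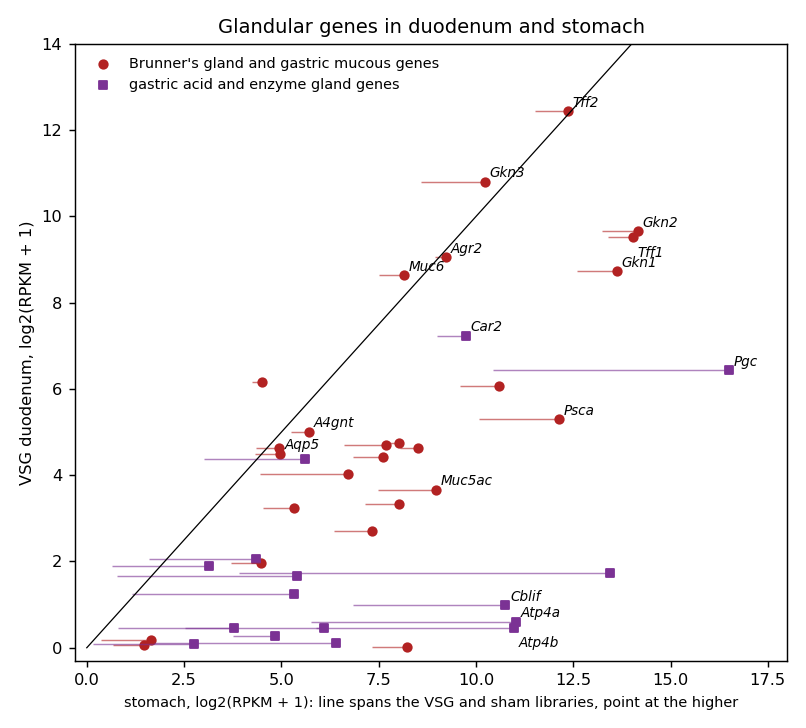
Level in VSG duodenum (vertical axis) against stomach (horizontal axis), as log2(RPKM + 1), for members of the mucous list (circles) and of the acid and enzyme gland list (squares), where each horizontal line spans the VSG and sham stomach libraries and the symbol stands at the higher one. Muc6, Tff2 and Gkn3, and Galnt6 without a label, lie above the diagonal of equal levels, Gkn1, Gkn2 and Tff1 lie far to its right, and Atp4a lies near the bottom at 0.524 RPKM in VSG duodenum.

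The 250 bases before the start of 4 of these genes are shown because each holds AGATAA, a sequence that GATA factors bind, and because the genes moved together. They are RefSeq sequences of GRCm38.p6, written 5′ to 3′ on the strand of the gene, with AGATAA, or TTATCT where it lies on the other strand, in capitals. The windows are chr7:141655394-141655643 (minus strand) for Muc6, chr9:99612252-99612501 (plus strand) for A4gnt, chr6:87350916-87351165 (minus strand) for Gkn1 and chr6:87373115-87373364 (plus strand) for Gkn2.
Muc6: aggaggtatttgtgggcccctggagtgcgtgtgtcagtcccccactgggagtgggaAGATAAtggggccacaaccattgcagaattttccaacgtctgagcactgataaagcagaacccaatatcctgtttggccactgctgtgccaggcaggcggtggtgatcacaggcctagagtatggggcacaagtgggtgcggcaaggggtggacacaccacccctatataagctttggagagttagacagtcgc
A4gnt: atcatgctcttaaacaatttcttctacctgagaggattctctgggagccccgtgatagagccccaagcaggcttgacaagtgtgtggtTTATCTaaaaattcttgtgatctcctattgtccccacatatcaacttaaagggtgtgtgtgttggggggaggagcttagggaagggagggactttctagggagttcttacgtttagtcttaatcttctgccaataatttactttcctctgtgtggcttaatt
Gkn1: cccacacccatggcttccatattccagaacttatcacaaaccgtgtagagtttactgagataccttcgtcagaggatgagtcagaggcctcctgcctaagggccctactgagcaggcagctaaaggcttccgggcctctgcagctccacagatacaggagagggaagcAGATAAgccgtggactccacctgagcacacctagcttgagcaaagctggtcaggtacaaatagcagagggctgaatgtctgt
Gkn2: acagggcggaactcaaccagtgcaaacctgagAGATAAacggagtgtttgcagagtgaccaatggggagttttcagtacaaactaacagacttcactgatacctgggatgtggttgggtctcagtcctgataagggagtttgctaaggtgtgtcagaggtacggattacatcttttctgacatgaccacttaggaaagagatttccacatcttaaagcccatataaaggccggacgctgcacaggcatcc

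AGATAA was found on either strand in 5 of the 17 mucous list genes for which the promoter table had a window, A4gnt, Cldn18, Gkn1, Gkn2 and Muc6. Counted from the start of the gene, its first base was at -194 in Muc6, -82 in Gkn1 and -218 in Gkn2, all on the strand of the gene, and at -162 in A4gnt, on the other strand. Across the table, 37 of 244 windows of genes higher in VSG duodenum held it (15.2%), 8 of 81 of genes lower (9.88%), 616 of 9687 of all genes kept (6.36%), and 10.3% of the windows of all 27025 genes of the promoter table. TTTATG, a sequence of CDX factors, was in 9.84% of the windows of higher genes, 12.3% of those of lower genes, 6.06% of those of all genes kept and 11.1% of all windows. GTTAAT, one arm of the HNF1 site, was in 7.38%, 7.41%, 4.05% and 6.52% of the same groups. For all 3 sequences both strands were searched and overlaps between them were not removed. Both directions held each sequence more often than all genes kept did, and for TTTATG and for AGATAA in the lower genes the share was close to that of all windows.

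Pancreatic enzyme genes formed the other large group. Of 33 acinar genes kept, of 37 listed, 30 were higher in VSG duodenum against either jejunum library and none was lower, with a median difference of 2.95. Ctrc, Prss3 and Cuzd1, under 1 RPKM in VSG jejunum, were kept only through VSG duodenum. After rescaling to 1 read total 29 were higher and 1, Pnliprp2, was lower. Ctrb1, chymotrypsinogen, had 764 RPKM in VSG duodenum, against 75.4 RPKM in VSG jejunum and 0.506 RPKM in sham jejunum. Cela2a, an elastase, had 409.9 RPKM in VSG duodenum, against 27.9 RPKM in VSG jejunum and 0.219 RPKM in sham jejunum. Pnlip, pancreatic lipase, had 194 RPKM in VSG duodenum, against 15 RPKM in VSG jejunum and 0.0957 RPKM in sham jejunum. VSG jejunum stood between the other libraries for these 3 genes, far above sham jejunum and between 10.1-fold and 14.7-fold below VSG duodenum.

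In 23 of the 30 genes sham jejunum was under 1 RPKM, and in those the ratio of VSG duodenum to VSG jejunum lay between 6.00 for Gp2 and 14.7 for Cela2a, with a median of 10.2. The median level of the list was 155 RPKM in VSG duodenum, 15.1 RPKM in VSG jejunum and 0.337 RPKM in sham jejunum. It was 70.4 RPKM in VSG stomach and 7.06 RPKM in sham stomach. These medians stand for most enzymes but not for all members: Clps, the cofactor of pancreatic lipase, had 267 RPKM in VSG duodenum, 51.5 RPKM in sham jejunum and 41858 RPKM in sham stomach, and Zg16, which goblet cells also make, had 1987 RPKM in VSG duodenum, against 2029 RPKM in VSG jejunum and 2452 RPKM in sham jejunum. The amylase genes Amy2a2, Amy2a3 and Amy2a5 are near-identical copies, and how reads were divided among them is uncertain.

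Insulin transcripts accompanied them: Ins2 had 5.16 RPKM in VSG duodenum and no read in VSG jejunum or sham jejunum, and Ins1 had 1.53 RPKM in VSG duodenum and no read in either jejunum library. Of 11 islet genes 4 were kept, 2 of them higher, and the other 7, Ins1 among them, averaged under 1 RPKM over both segments. Ptf1a, a transcription factor of acinar cells, had 0.248 RPKM in VSG duodenum and no read in either jejunum library. Spink1, a trypsin inhibitor that intestinal epithelium also makes, had 256 RPKM in VSG duodenum, against 409.5 RPKM in VSG jejunum and 392 RPKM in sham jejunum. Pancreas is attached to the duodenum, and the part of attached pancreas in these values was not tested.

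Iron genes followed. Of 23 genes of iron handling kept, of 24 listed, 6 were higher in VSG duodenum against either jejunum library and none was lower, with a median difference of 0.36, close to the 0.29 of all genes. The higher genes covered uptake at the lumen, storage and export, while the other 17 lay within 2-fold. All 6 stayed above 2-fold after rescaling to 1 read total.

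Cybrd1 (chr2:71118054-71142926), the ferric reductase of the brush border, had 42.4 RPKM in VSG duodenum, against 0.828 RPKM in VSG jejunum and 0.728 RPKM in sham jejunum, a ratio of 51.2 over VSG jejunum (95% interval 41.1 to 64.6). Slc11a2, the ferrous iron importer DMT1, had 137 RPKM in VSG duodenum, against 13.4 RPKM in VSG jejunum and 18.6 RPKM in sham jejunum. Slc40a1 (chr1:45908070-45926532), ferroportin, the exporter of the basolateral membrane, had 152 RPKM in VSG duodenum, against 4.0 RPKM in VSG jejunum and 5.4 RPKM in sham jejunum. Importer, reductase and exporter were all low in both jejunum libraries, and in the ileum as well, with Slc40a1 at 8.6 RPKM in VSG ileum and 6.62 RPKM in sham ileum.

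Fth1, the heavy chain of ferritin, had 9306 RPKM in VSG duodenum, against 2137 RPKM in VSG jejunum and 3026 RPKM in sham jejunum. Ftl1, the light chain, did not reach 2-fold, with 1356 RPKM in VSG duodenum, against 1059 RPKM in VSG jejunum and 1387 RPKM in sham jejunum. The ferritin chains thus differed in their pattern. Ncoa4, the receptor that carries ferritin to lysosomes, was chosen after its values were seen and had 336 RPKM in VSG duodenum, against 60.7 RPKM in VSG jejunum and 74.5 RPKM in sham jejunum.

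Epas1, the hypoxia-inducible factor HIF-2 alpha that controls iron genes in enterocytes, had 58.2 RPKM in VSG duodenum, against 20.7 RPKM in VSG jejunum and 23.6 RPKM in sham jejunum. Slc39a14, a transporter of zinc, iron and manganese, had 58.6 RPKM in VSG duodenum, against 23.1 RPKM in VSG jejunum and 26.0 RPKM in sham jejunum. Heph, the ferroxidase that works with ferroportin, was nearly level within the small intestine, with 42.3 RPKM in VSG duodenum, against 33.5 RPKM in VSG jejunum and 35.6 RPKM in sham jejunum. Tfrc, the transferrin receptor, had 48.9 RPKM in VSG duodenum, against 62.5 RPKM in VSG jejunum and 40.5 RPKM in sham jejunum, so its value lay between those of the jejunum libraries.

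Of 12 genes of calcium, phosphate and vitamin D handling kept, of 20 listed, 3 were higher and 1 was lower in VSG duodenum, with a median difference of 0.33. All 4 held against both jejunum libraries. S100g (chrX:162961992-162964599), calbindin-D9k, which carries calcium across the enterocyte, had 524 RPKM in VSG duodenum, against 14.8 RPKM in VSG jejunum and 18.7 RPKM in sham jejunum. Atp2b1, the calcium pump of the plasma membrane, had 110.2 RPKM in VSG duodenum, against 24.4 RPKM in VSG jejunum and 23.4 RPKM in sham jejunum. Cldn2, a claudin that forms cation pores between cells, had 63.6 RPKM in VSG duodenum, against 21.3 RPKM in VSG jejunum and 17.5 RPKM in sham jejunum.

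Trpv6, the calcium channel of the brush border, was below the limit of 1 RPKM on average, with 1.01 RPKM in VSG duodenum, against 0.0182 RPKM in VSG jejunum and 0.0170 RPKM in sham jejunum. Vdr, the vitamin D receptor, did not reach 2-fold, with 143 RPKM in VSG duodenum, against 85.0 RPKM in VSG jejunum and 90.9 RPKM in sham jejunum. Slc34a2, the sodium-phosphate cotransporter of the small intestine, had 0.0136 RPKM in VSG duodenum, against 5.48 RPKM in VSG jejunum and 1.74 RPKM in sham jejunum, and it was higher again in ileum, at 109 RPKM in VSG ileum and 62.3 RPKM in sham ileum. The phosphate transporters Slc20a1 and Slc20a2 did not reach 2-fold, with differences of 0.43 and 0.29.

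Vitamin genes differed in both directions. Of 19 genes kept, of 22 listed, 4 were higher and 2 lower in VSG duodenum, with a median difference of 0.28, or -0.03 against sham jejunum, and 2 and 2 held against both jejunum libraries. Slc19a3, a thiamine transporter, had 13.6 RPKM in VSG duodenum, against 3.08 RPKM in VSG jejunum and 5.77 RPKM in sham jejunum. Slc19a1, the reduced folate carrier, had 26.4 RPKM in VSG duodenum, against 8.63 RPKM in VSG jejunum and 11.7 RPKM in sham jejunum. Slc46a1, the proton-coupled folate transporter, had 366 RPKM in VSG duodenum, against 172 RPKM in VSG jejunum and 245 RPKM in sham jejunum, which was under 2-fold against sham jejunum and after rescaling.

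The vitamin C transporters Slc23a1 and Slc23a2 differed in opposite directions. Slc23a1, of the brush border, had 3.73 RPKM in VSG duodenum, against 41.0 RPKM in VSG jejunum and 55.0 RPKM in sham jejunum. Slc23a2 had 48.4 RPKM in VSG duodenum, against 19.1 RPKM in VSG jejunum and 24.0 RPKM in sham jejunum, and stayed just short of 2-fold against sham jejunum at 0.98. Cubn, the receptor for intrinsic factor with vitamin B12, is a gene of the ileum and had 4.24 RPKM in VSG duodenum, against 20.1 RPKM in VSG jejunum and 26.8 RPKM in sham jejunum, with 81.8 RPKM in VSG ileum.

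In the zinc and copper list, 2 of 14 genes were higher in VSG duodenum and none was lower, with a median difference of 0.31. Slc30a10, a manganese exporter, had 62.2 RPKM in VSG duodenum, against 12.1 RPKM in VSG jejunum and 12.4 RPKM in sham jejunum. Atp7b, a copper pump, stood at the threshold with a difference of 1.00 and was below it against sham jejunum and after rescaling.

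Of 27 genes of bicarbonate, salt and water transport kept, of 32 listed, 5 were higher and 2 lower in VSG duodenum, with a median difference of 0.38. Slc4a7, a sodium-bicarbonate cotransporter, had 123 RPKM in VSG duodenum, against 22.7 RPKM in VSG jejunum and 36.4 RPKM in sham jejunum. Slc4a4, the cotransporter that loads bicarbonate across the basolateral membrane, had 29.6 RPKM in VSG duodenum, against 11.6 RPKM in VSG jejunum and 12.9 RPKM in sham jejunum. Car9, a carbonic anhydrase of the cell surface, had 135 RPKM in VSG duodenum, against 50.6 RPKM in VSG jejunum and 66.5 RPKM in sham jejunum. Genes that bring bicarbonate into the cell or make it were thus among the higher ones, as was Car2 above.

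Cftr, Slc26a6 and Slc26a3, which release bicarbonate at the lumen, did not reach 2-fold against VSG jejunum. Ano1, a channel of the same list, was higher, with 6.70 RPKM in VSG duodenum, against 2.47 RPKM in VSG jejunum and 2.30 RPKM in sham jejunum. It was under 2-fold after rescaling. Cftr, the chloride and bicarbonate channel, had 44.5 RPKM in VSG duodenum, against 21.9 RPKM in VSG jejunum and 19.8 RPKM in sham jejunum. Its difference was 0.99 against VSG jejunum, at the threshold, and 1.13 against sham jejunum, above it. Slc26a6, an anion exchanger, had 204 RPKM in VSG duodenum, against 113 RPKM in VSG jejunum and 140.3 RPKM in sham jejunum. Slc26a3, another chloride-bicarbonate exchanger, had a difference of 0.45, closer to the median of all genes. Clca4a and Car4 were lower in VSG duodenum. Clca4a had 57.4 RPKM in VSG duodenum, against 342 RPKM in VSG jejunum and 305 RPKM in sham jejunum. Car4, a carbonic anhydrase anchored in the brush border, had 25.7 RPKM in VSG duodenum, against 68.6 RPKM in VSG jejunum and 110.1 RPKM in sham jejunum.

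The intestinal alkaline phosphatases, which remove phosphate from lipopolysaccharide and nucleotides at the brush border, were 2 of the 3 genes higher among 13 kept, of 15 listed, of alkaline phosphatases and nucleotide enzymes, while 2 were lower and the median difference was 0.23. Akp3 (chr1:87124954-87128728), the duodenal form, had 3174 RPKM in VSG duodenum, against 36.0 RPKM in VSG jejunum and 223 RPKM in sham jejunum, a ratio of 88.1 over VSG jejunum (95% interval 84.4 to 92.1). Alpi, its neighbour, had 3210.0 RPKM in VSG duodenum, against 804 RPKM in VSG jejunum and 1585 RPKM in sham jejunum. Both genes were thus near the same level in VSG duodenum, and Akp3 was lower than Alpi in both jejunum libraries and in ileum, where it had 2.50 RPKM in VSG ileum and Alpi 394 RPKM. The jejunum libraries differed from each other for both genes, so the size of the difference depended on which of them was used: that of Akp3 was 6.42 against VSG jejunum and 3.83 against sham jejunum.

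The 250 bases before each start are shown because the paralogs share a high level in duodenum and part from each other in jejunum. They are RefSeq sequences of GRCm38.p6, 5′ to 3′ on the strand of the gene, at chr1:87124704-87124953 (plus strand) for Akp3 and chr1:87101607-87101856 (minus strand) for Alpi, with stretches of at least 8 bases that an alignment of both windows paired, each taken to its full shared length, in capitals.
Akp3: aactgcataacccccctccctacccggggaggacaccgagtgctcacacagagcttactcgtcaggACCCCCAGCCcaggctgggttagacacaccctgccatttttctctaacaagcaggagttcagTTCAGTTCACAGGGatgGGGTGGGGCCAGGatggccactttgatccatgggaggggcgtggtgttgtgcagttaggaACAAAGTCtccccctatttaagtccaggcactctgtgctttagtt
Alpi: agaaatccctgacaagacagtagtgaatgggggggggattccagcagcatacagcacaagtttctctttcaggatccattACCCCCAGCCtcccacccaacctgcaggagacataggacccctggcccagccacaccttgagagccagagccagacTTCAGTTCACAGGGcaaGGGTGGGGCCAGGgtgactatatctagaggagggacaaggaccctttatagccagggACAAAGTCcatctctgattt

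The windows aligned over 219 base pairs, of which 147 were identical (67.1%). There were 4 such shared stretches, of 10, 14, 13 and 8 bases.

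Nt5e and Enpp7, the 2 lower genes of the same list, are described with their own roles. Nt5e, the ectoenzyme that makes adenosine from AMP, had 5.24 RPKM in VSG duodenum, against 26.1 RPKM in VSG jejunum and 35.2 RPKM in sham jejunum. Enpp7 (chr11:118988181-118993221), the alkaline sphingomyelinase of the brush border, had 3.61 RPKM in VSG duodenum, against 78.2 RPKM in VSG jejunum and 85.8 RPKM in sham jejunum, and 610.1 RPKM in VSG ileum and 667 RPKM in sham ileum. It was 21.7-fold higher in VSG jejunum (95% interval 18.9 to 25).

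Further enzymes of sphingolipid breakdown, chosen after their values were seen, were lower by less. Asah2, neutral ceramidase, had 28.6 RPKM in VSG duodenum, against 68.8 RPKM in VSG jejunum and 60.4 RPKM in sham jejunum. Sgpl1, sphingosine-1-phosphate lyase, had 39.8 RPKM in VSG duodenum, against 99.0 RPKM in VSG jejunum and 107 RPKM in sham jejunum. Both were at least 2-fold lower than either jejunum library, and other enzymes of these steps were not counted.

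**Figure D3:**
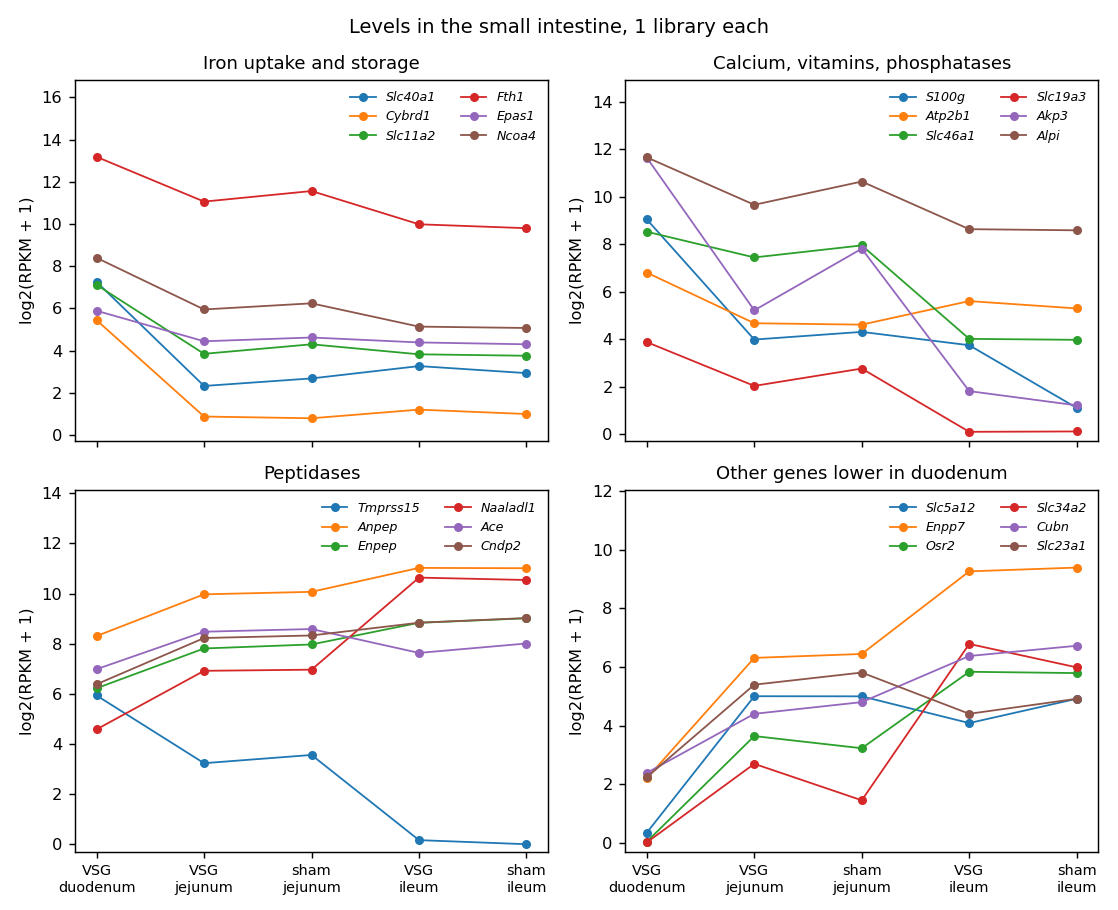
Level of 24 genes, as log2(RPKM + 1), in VSG duodenum, VSG jejunum, sham jejunum, VSG ileum and sham ileum, 1 library each, joined by lines only to guide the eye. Iron genes stand highest in VSG duodenum, as do S100g, Akp3 and Tmprss15, while the other peptidases and Slc5a12, Enpp7, Osr2, Slc34a2, Cubn and Slc23a1 stand lowest there.

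Genes of protein digestion were mostly lower in VSG duodenum. Of 19 peptidase genes kept, of 20 listed, 7 were lower in VSG duodenum and 1 was higher, all 8 also against sham jejunum, with a median difference of -0.71, against 0.29 over all genes, and of -0.98 after rescaling. In 14 of the 19 VSG duodenum lay below both jejunum libraries. For 6 of the 7 lower genes both ileum libraries stood above both jejunum libraries, so those 6 were lowest in duodenum and highest in ileum within the small intestine.

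Naaladl1, a peptidase of the ileal brush border, had 23.0 RPKM in VSG duodenum, against 119.9 RPKM in VSG jejunum and 124 RPKM in sham jejunum, with 1589.6 RPKM in VSG ileum. Anpep, aminopeptidase N, had 315 RPKM in VSG duodenum, against 1001 RPKM in VSG jejunum and 1072 RPKM in sham jejunum. Enpep, aminopeptidase A, had 73.7 RPKM in VSG duodenum, against 223 RPKM in VSG jejunum and 249.5 RPKM in sham jejunum. These aminopeptidases of the brush border differed by about the same amount, -1.66 for Anpep and -1.59 for Enpep.

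Cndp2 and Lap3, which split dipeptides and remove amino acids inside the cell, were lower as well. Cndp2 had 82.4 RPKM in VSG duodenum, against 298 RPKM in VSG jejunum and 320.1 RPKM in sham jejunum. Lap3 had 53.9 RPKM in VSG duodenum, against 163 RPKM in VSG jejunum and 149 RPKM in sham jejunum. Ace, angiotensin-converting enzyme, was the exception to the slope towards ileum: it had 125 RPKM in VSG duodenum, against 355 RPKM in VSG jejunum and 383 RPKM in sham jejunum, and 197 and 256 RPKM in VSG and sham ileum. Dpp4, dipeptidyl peptidase 4, which inactivates incretin hormones, did not reach 2-fold, with 49.9 RPKM in VSG duodenum, against 96.3 RPKM in VSG jejunum and 90.4 RPKM in sham jejunum.

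The higher peptidase was Tmprss15, enteropeptidase, which activates trypsinogen from the pancreas. It had 60.1 RPKM in VSG duodenum, against 8.40 RPKM in VSG jejunum and 10.8 RPKM in sham jejunum, and at most 0.119 RPKM in ileum. The enzyme that starts the cascade of pancreatic proteases and the peptidases that finish protein digestion thus lay in opposite directions between the segments.

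Genes for transport of the products mostly lay within 2-fold, as did most of all genes kept. Of 21 amino acid and peptide transporters kept, of 25 listed, 1 was lower in VSG duodenum and none was higher, with a median difference of -0.06. The lower one was Slc36a1, a proton-coupled amino acid transporter, with 15.6 RPKM in VSG duodenum, against 37.3 RPKM in VSG jejunum and 45.8 RPKM in sham jejunum. Slc15a1, the peptide transporter PEPT1, had 42.6 RPKM in VSG duodenum, against 69.3 RPKM in VSG jejunum and 76.9 RPKM in sham jejunum. Slc6a19, the main neutral amino acid transporter, had 160.0 RPKM in VSG duodenum, against 158 RPKM in VSG jejunum and 207 RPKM in sham jejunum.

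Few genes of fat absorption reached 2-fold, as over all genes kept, of which 2.74% were higher and 0.952% lower. All 33 genes listed were kept, 1 was lower and none was higher, with differences between -1.07 and 0.40 and a median of -0.06. Of the 33, 31 lay below the median of all genes, and the list median was -0.33 after rescaling and -0.37 against sham jejunum. Apoa4, an apolipoprotein of chylomicrons, had 10034 RPKM in VSG duodenum, against 13264 RPKM in VSG jejunum and 18545 RPKM in sham jejunum. Mttp, which loads lipid onto apolipoprotein B, had 840.1 RPKM in VSG duodenum, against 907 RPKM in VSG jejunum and 1179 RPKM in sham jejunum. The lower gene was Cd36, a fatty acid receptor, with 25.8 RPKM in VSG duodenum, against 55.3 RPKM in VSG jejunum and 62.7 RPKM in sham jejunum. Among 21 sterol genes, Scarb1, the lipoprotein receptor SR-BI, was higher in VSG duodenum at 62.4 RPKM, against 13.0 RPKM in VSG jejunum and 23.9 RPKM in sham jejunum, and none was lower.

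Sugar digestion and uptake had 22 genes kept, of 23 listed, 2 of them higher and 1 lower in VSG duodenum, with a median difference of 0.34. Slc5a1, the glucose transporter SGLT1, had 1276 RPKM in VSG duodenum, against 1109 RPKM in VSG jejunum and 1101 RPKM in sham jejunum. Sis, sucrase-isomaltase, had 1228 RPKM in VSG duodenum, against 989.8 RPKM in VSG jejunum and 995 RPKM in sham jejunum. Both were close to level between the segments. Slc2a5, the fructose transporter, and Fbp1, an enzyme of gluconeogenesis, passed 2-fold against VSG jejunum only, with Slc2a5 at 199 RPKM in VSG duodenum, against 95 RPKM in VSG jejunum and 158 RPKM in sham jejunum. The lower gene, Slc5a4b, a sodium-glucose transporter relative, had 7.57 RPKM in VSG duodenum, against 40.1 RPKM in VSG jejunum and 68.8 RPKM in sham jejunum.

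**Figure D4:**
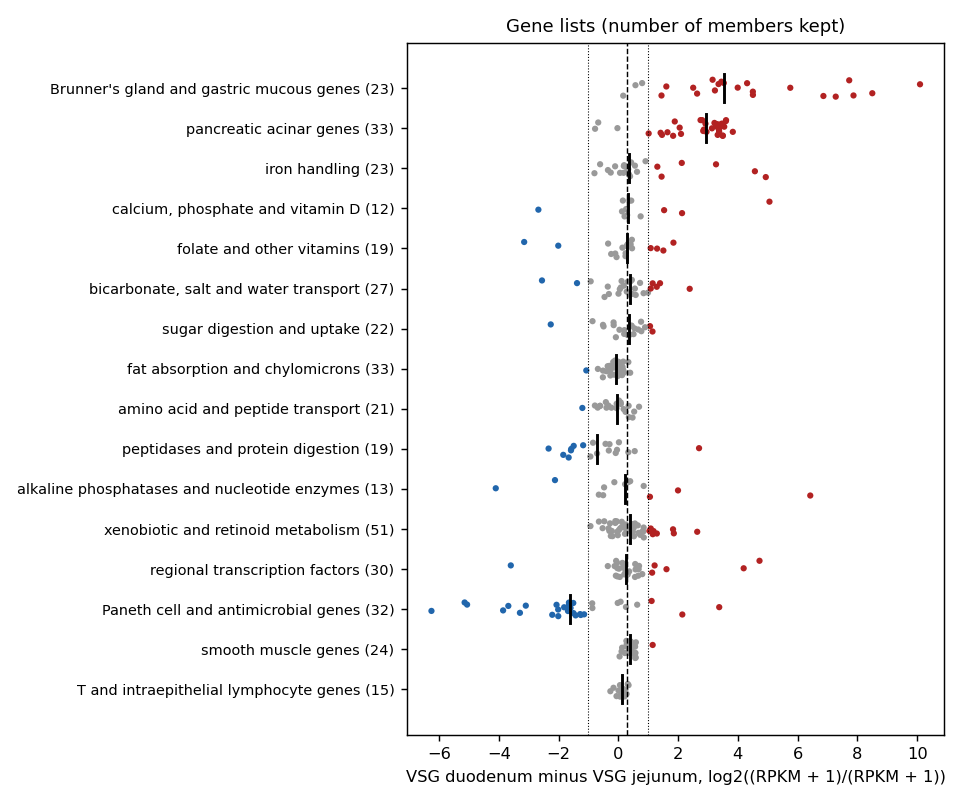
Difference between VSG duodenum and VSG jejunum, as log2((RPKM + 1)/(RPKM + 1)), for each gene kept of 16 lists, 1 point per gene, red where at least 2-fold higher in VSG duodenum and blue where at least 2-fold lower. Black bars are list medians, the dashed line is the median of all genes kept at 0.29 and dotted lines mark 2-fold, and the mucous and pancreatic lists lie to the right while the Paneth and peptidase lists lie to the left.

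Other genes with large differences were outside the lists. Slc5a12 (chr2:110597299-110649345), a sodium-coupled transporter of lactate and other monocarboxylates, had 0.275 RPKM in VSG duodenum, against 31.0 RPKM in VSG jejunum and 30.9 RPKM in sham jejunum, and it was 113-fold higher in VSG jejunum (95% interval 83.3 to 157). Pmp22, a membrane protein best known from myelin, had 8.24 RPKM in VSG duodenum, against 140.0 RPKM in VSG jejunum and 196 RPKM in sham jejunum, and 509.9 RPKM in VSG ileum. The transcript 2310057J18Rik, for which no role is given here, had 190.0 RPKM in VSG duodenum, against 0.117 RPKM in VSG jejunum and 0.0364 RPKM in sham jejunum, and at most 0.221 RPKM in the stomach and ileum libraries. All 3 were among the 15 largest differences in their direction.

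Among transcription factors known to set regional identity, 24 of the 30 kept lay within 2-fold. Of 30 kept, of 35 listed, 5 were higher and 1 lower in VSG duodenum against either jejunum library, with a median difference of 0.27. Over all genes kept, 1.79% were higher and 0.558% lower against both jejunum libraries. After rescaling 3 remained higher, and Foxa1 and Onecut2 were then under 2-fold. Pdx1 (chr5:147270097-147275848) had 67.5 RPKM in VSG duodenum, against 1.59 RPKM in VSG jejunum and 5.75 RPKM in sham jejunum, and 0.159 and 0.326 RPKM in VSG and sham ileum. Pancreas expresses Pdx1 as well, and the part of pancreatic RNA in this value was not tested.

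Nkx6-3, a homeobox factor of antral stomach, had 18.2 RPKM in VSG duodenum, against 0.0476 RPKM in VSG jejunum and 0.0446 RPKM in sham jejunum. Meis2, a homeobox factor, had 3.98 RPKM in VSG duodenum, against 0.629 RPKM in VSG jejunum and 0.626 RPKM in sham jejunum. Osr2 (chr15:35296098-35303305), a zinc finger factor, had 0.0298 RPKM in VSG duodenum, against 11.5 RPKM in VSG jejunum and 8.36 RPKM in sham jejunum, with 56.0 RPKM in VSG ileum. Pdx1 and Osr2 thus ran in opposite directions along the small intestine.

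Factors shared by the whole small intestine differed by less than 2-fold. Cdx2, which specifies intestine, had 78.8 RPKM in VSG duodenum, against 80.7 RPKM in VSG jejunum and 96.6 RPKM in sham jejunum. Hnf4a, a regulator of enterocyte genes, had 153 RPKM in VSG duodenum, against 157 RPKM in VSG jejunum and 145 RPKM in sham jejunum. Gata4, a factor of the proximal intestine that is known to be absent from distal ileum, had 72.2 RPKM in VSG duodenum, against 48.5 RPKM in VSG jejunum and 53.3 RPKM in sham jejunum. Of 35 Hox genes 8 were kept, and none reached 2-fold.

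Gut hormones differed in both directions. Of 10 genes of proximal hormones and their enzymes kept, of 13 listed, 2 were higher in VSG duodenum and none was lower, with a median difference of 0.59. Gast, gastrin, had 2.83 RPKM in VSG duodenum and no read in VSG jejunum or sham jejunum, and 280.2 and 419 RPKM in VSG and sham stomach. Cck, cholecystokinin, had 67.3 RPKM in VSG duodenum, against 32.7 RPKM in VSG jejunum and 48.2 RPKM in sham jejunum, so it passed 2-fold against VSG jejunum only, and not after rescaling. Gip had 114 RPKM in VSG duodenum, against 97.2 RPKM in VSG jejunum and 129.7 RPKM in sham jejunum, a value between the jejunum libraries.

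Sct, secretin, which calls for bicarbonate, had 66.4 RPKM in VSG duodenum, against 33.9 RPKM in VSG jejunum and 52.6 RPKM in sham jejunum, just under 2-fold. Among 3 distal hormone genes kept, Nts, neurotensin, was lower, with 1.58 RPKM in VSG duodenum, against 13.9 RPKM in VSG jejunum and 11.6 RPKM in sham jejunum. Pyy, peptide YY, was higher, with 7.99 RPKM in VSG duodenum, against 1.76 RPKM in VSG jejunum and 1.70 RPKM in sham jejunum. Gcg, the precursor of GLP-1, did not reach 2-fold, with 12.5 RPKM in VSG duodenum, against 22.3 RPKM in VSG jejunum and 18.7 RPKM in sham jejunum. Pancreatic islets express Gcg and Pyy too, and the islet values are given above with Ins2. Of 16 genes of the enteroendocrine lineage kept, 1 was higher and none was lower.

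Glp1r, the receptor for GLP-1, was chosen after its values were seen. It had 25 RPKM in VSG duodenum, against 0.306 RPKM in VSG jejunum and 0.219 RPKM in sham jejunum, a ratio of 81.7 over VSG jejunum (95% interval 42.1 to 184). Stomach had 1.31 RPKM after VSG and 6.21 RPKM after sham surgery. As background, mouse Brunner's glands and pancreatic islets both express this receptor, and which cells gave these reads was not tested.

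Paneth cell genes were prominent among the genes lower in VSG duodenum. Of 32 genes of Paneth cells and antimicrobial defence kept, of 34 listed, 23 were lower and 3 higher in VSG duodenum, with a median difference of -1.62, against 0.29 over all genes. Only 8 of the 23 were also at least 2-fold lower than sham jejunum, and against sham jejunum the median was -0.44. The jejunum libraries themselves differed here: 22 of the 32 genes were at least 2-fold higher in VSG than in sham jejunum, where 0.771% of all genes were. The size of the difference between the segments thus rested on which jejunum library was used, although 20 of the 23 genes stood below sham jejunum as well.

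Of the 15 genes with the lowest difference in the table, 9 were alpha-defensins, the bactericidal peptides of Paneth cells. Of all genes kept, 24 were alpha-defensins, 23 of these were lower in VSG duodenum, and 10 of these were lower against both jejunum libraries. Many are near-identical copies, so how reads were divided among single genes is uncertain, and they are best read as a group. Defa22 had 3.61 RPKM in VSG duodenum, against 162 RPKM in VSG jejunum and 15.8 RPKM in sham jejunum. Defa24, the one at the highest level among those named here, had 1292 RPKM in VSG duodenum, against 3681 RPKM in VSG jejunum and 1752 RPKM in sham jejunum. VSG jejunum exceeded VSG duodenum by between 2.08-fold for Defa25 and 44.9-fold for Defa22, and for 22 of the 24 genes both ileum libraries stood above VSG jejunum.

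Mptx2 (chr1:173274461-173277756), a mucosal pentraxin of Paneth cells, had the lowest difference of all genes. It had 0.734 RPKM in VSG duodenum, against 131 RPKM in VSG jejunum, 2.77 RPKM in sham jejunum, 268 RPKM in VSG ileum and 53.7 RPKM in sham ileum. Lyz1, the lysozyme of Paneth cells, had 1013 RPKM in VSG duodenum, against 2459 RPKM in VSG jejunum and 1062 RPKM in sham jejunum. Its value in VSG duodenum was therefore close to that in sham jejunum.

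The Reg lectins, antimicrobial proteins of the epithelium, split. Reg1 had 3729 RPKM in VSG duodenum, against 358 RPKM in VSG jejunum and 634 RPKM in sham jejunum. Reg2 had 3.41 RPKM in VSG duodenum, no read in VSG jejunum and 0.0721 RPKM in sham jejunum. Reg3a had 45.9 RPKM in VSG duodenum, against 216 RPKM in VSG jejunum and 351 RPKM in sham jejunum, lower than both. Reg1 and Reg2 are also acinar cell products, and the pancreatic values stand above.

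Reg3b and Reg3g changed sides with the jejunum library. Reg3b had 471 RPKM in VSG duodenum, against 1980.4 RPKM in VSG jejunum and 105 RPKM in sham jejunum. Reg3g had 212 RPKM in VSG duodenum, against 645 RPKM in VSG jejunum and 50.1 RPKM in sham jejunum. Mmp7, the protease that activates alpha-defensins in the mouse, had 23.5 RPKM in VSG duodenum, against 68.4 RPKM in VSG jejunum and 20.6 RPKM in sham jejunum. For all 3 VSG duodenum lay between the jejunum libraries, so no direction between the segments can be given.

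**Figure D5:**
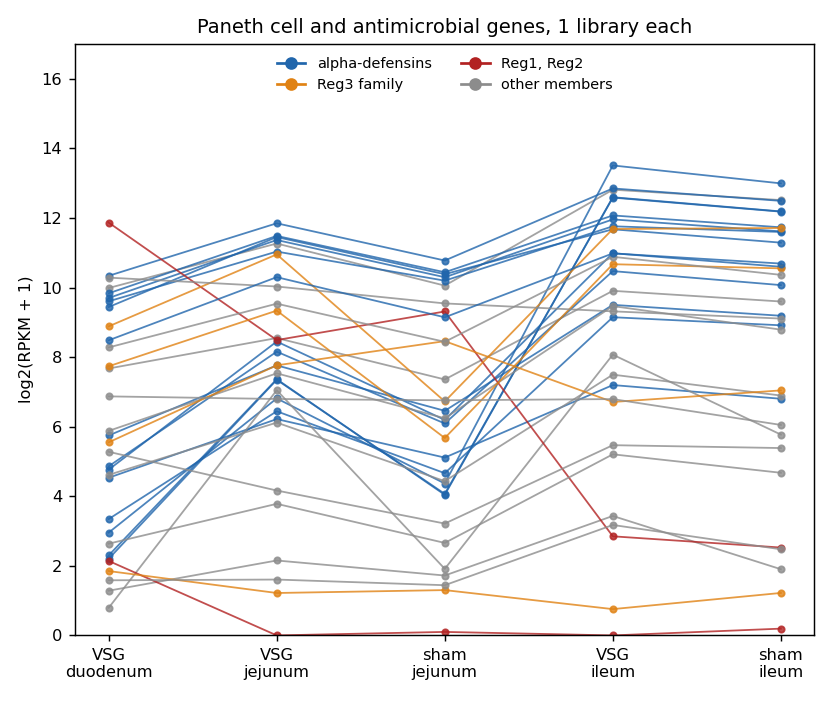
Level of the 32 genes of Paneth cells and antimicrobial defence, as log2(RPKM + 1), in VSG duodenum, VSG jejunum, sham jejunum, VSG ileum and sham ileum, 1 library each, joined by lines to guide the eye. Alpha-defensins (blue) stand lowest in VSG duodenum and highest in ileum, the Reg3 family (orange) is scattered, and Reg1 and Reg2 (red) stand highest in VSG duodenum.

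Defence and acute phase genes outside the crypt depended on the jejunum library in the same way. Of 17 genes of epithelial defence kept, 7 were lower and none was higher in VSG duodenum, with a median difference of -0.72, and 1 of the 7, Gsdmc4, held against sham jejunum. Gsdmc4, a gasdermin, had 0.537 RPKM in VSG duodenum, against 6.88 RPKM in VSG jejunum and 2.72 RPKM in sham jejunum. Saa3, a serum amyloid A, had 0.339 RPKM in VSG duodenum, against 9.13 RPKM in VSG jejunum and 0.207 RPKM in sham jejunum. The sham jejunum value of Saa3 thus lay below that of VSG duodenum. Gsdmc4 and Saa3, both under 1 RPKM in VSG duodenum, were kept only through VSG jejunum.

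Small groups of genes of liver, neutrophils and fat cells were lower in VSG duodenum against VSG jejunum alone. Of 11 liver genes kept, of 20 listed, 7 were lower and 1 higher with a median of -1.44, and none of the 7 held against sham jejunum. Of 6 neutrophil genes kept, of 16 listed, 3 were lower and 1 higher with a median of -1.21, and again none of the lower ones held. Of 7 fat cell and mesothelial genes kept, of 15 listed, 3 were lower with a median of -0.17, or 0.20 against sham jejunum, and none held. Members under 1 RPKM in VSG duodenum, such as Alb, Cfd and S100a8 below, were kept only through VSG jejunum. The filter thus favoured a call of lower for them, and these counts and medians are given only as a description.

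Alb, albumin, had 0.864 RPKM in VSG duodenum, against 4.43 RPKM in VSG jejunum and 0.927 RPKM in sham jejunum. Cfd, adipsin of fat cells, had 0.158 RPKM in VSG duodenum, against 4.95 RPKM in VSG jejunum and 0.231 RPKM in sham jejunum. S100a8, a calprotectin subunit of neutrophils, had 0.173 RPKM in VSG duodenum, against 2.17 RPKM in VSG jejunum and 0.127 RPKM in sham jejunum. VSG jejunum thus stood apart from both other libraries, at low levels, and the part of attached or infiltrating tissue was not tested. The higher liver gene was Ttr, transthyretin, which islets express too, with 11.3 RPKM in VSG duodenum, against 2.53 RPKM in VSG jejunum and 2.82 RPKM in sham jejunum.

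Enzymes of drug metabolism and fatty acid oxidation were called against VSG jejunum but hardly against sham jejunum. Of 51 genes of xenobiotic and retinoid metabolism kept, of 56 listed, 8 were higher and none was lower with a median of 0.40, or -0.21 against sham jejunum. Of the 8, 1 held against both, Gsta4, a glutathione transferase. Gsta4 had 486 RPKM in VSG duodenum, against 77.3 RPKM in VSG jejunum and 148 RPKM in sham jejunum. Gsta1 had 2308 RPKM in VSG duodenum, against 637 RPKM in VSG jejunum and 1287 RPKM in sham jejunum, and its close copy Gsta2 makes the division of reads uncertain. Cyp3a11, a cytochrome P450 of drug breakdown, had 181 RPKM in VSG duodenum, against 79.3 RPKM in VSG jejunum and 156 RPKM in sham jejunum.

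In fatty acid oxidation and ketogenesis, 5 of 26 genes kept were higher and 1 lower with a median of 0.36, or -0.01 against sham jejunum, and none of the 5 held against sham jejunum. Acox2, a peroxisomal oxidase of bile acid side chains and branched fatty acids, was lower against both, with 4.62 RPKM in VSG duodenum, against 13.3 RPKM in VSG jejunum and 26.9 RPKM in sham jejunum. Of 12 bile acid genes kept, 1 was higher and none was lower. It was Nr0b2, the repressor SHP, with 14.4 RPKM in VSG duodenum, against 4.79 RPKM in VSG jejunum and 10.4 RPKM in sham jejunum.

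Lists of functions and cell types that both segments share differed in how many of their genes were called. Over all genes kept, 2.74% were higher and 0.952% lower, so an absence of calls in lists of this length says little. The stem cell, goblet cell and interferon lists below held a larger share of higher genes than that. None of 49 oxidative phosphorylation genes, 25 genes of the secretory pathway and unfolded protein response, 18 clock genes, 15 genes of T and intraepithelial lymphocytes and 8 genes of enteric neurons and glia kept reached 2-fold, with medians of 0.32, 0.44, 0.25, 0.11 and 0.31, the lymphocyte median being -0.10 after rescaling. Of 24 smooth muscle genes 1, Ano1, was higher, with a median of 0.40 for the list. Of 22 stem cell and Wnt genes 3 were higher, with a median of 0.51, and none of the 3 was above 2-fold after rescaling. Lgr5, the receptor of crypt stem cells, had 1.6 RPKM in VSG duodenum, against 1.36 RPKM in VSG jejunum and 1.5 RPKM in sham jejunum.

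Of 16 goblet cell genes kept, 3 were higher and none was lower with a median of 0.15, or -0.12 after rescaling, and 2 of the 3, Agr2 and Spdef, were also on the mucous list. Of 31 interferon response genes 4 were higher with a median of 0.43, 3 of them against both jejunum libraries, and none passed 2-fold after rescaling. Ifit1 had 23.3 RPKM in VSG duodenum, against 10.1 RPKM in VSG jejunum and 7.54 RPKM in sham jejunum. Mki67, a marker of dividing cells, had 16.3 RPKM in VSG duodenum, against 13.1 RPKM in VSG jejunum and 9.98 RPKM in sham jejunum, and of 30 proliferation genes 1 reached 2-fold.

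In 49 genes VSG duodenum stood at least 2-fold above each of the other 8 libraries used, from stomach, jejunum, ileum and colon, and 24 of these were on a list. They included 2310057J18Rik, Akp3, Alpi, S100g, Pdx1, Slc11a2, Slc40a1, Cybrd1, Fth1, Tmprss15 and Slc30a10. The acinar genes Pnlip, Cel, Cpa1, Cela2a, Prss2 and Ctrl were among them as well, as were Reg1 and Ifit1. Slc16a9, Otop3 and Papss2 were among them too and were chosen after their values were seen. Slc16a9, a monocarboxylate and carnitine transporter, had 46.8 RPKM in VSG duodenum, against 2.69 RPKM in VSG jejunum and 11.7 RPKM in sham jejunum. Otop3, a proton channel, had 83.1 RPKM in VSG duodenum, against 8.56 RPKM in VSG jejunum and 25.8 RPKM in sham jejunum.

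Papss2, which makes the activated sulfate used to sulfate mucins and other molecules, had 1239.5 RPKM in VSG duodenum, against 324 RPKM in VSG jejunum and 446 RPKM in sham jejunum. Slc13a1, a sulfate transporter also chosen after its values were seen, had 115 RPKM in VSG duodenum, against 27.7 RPKM in VSG jejunum and 38.9 RPKM in sham jejunum. Both genes were at least 2-fold higher than either jejunum library, and other genes of sulfate handling were not counted.

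In 56 genes VSG duodenum stood at least 2-fold below each of the 4 jejunum and ileum libraries, led by Enpp7, Pmp22, Slc5a12 and Osr2. The order of the ileum gave a further view of position. Among the 68 genes lower against both jejunum libraries, 61.8% had both ileum libraries above both jejunum libraries, against 47% of all genes kept, and 25% had them below, against 22.7%. Among the 218 genes higher against both, 32.6% had both ileum libraries below both jejunum libraries and 33.5% had them above. Since both shares rest on the same jejunum values that were used to choose the genes, they are given as a description.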

How the data were processed

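The authors deposited 1 table of RPKM values, with 1 column per library and 23079 genes by Entrez identifier. Tools named in the submitters' processing notes are GSNAP and Cufflinks, and the build is mm10, with neither versions nor roles. TruSeq libraries were made from TRIzol RNA, per the labels. Symbols matched 23008 identifiers. Rows 27 to 18213 of the deposited table (18187 rows) held intestinal values 1 row below their gene, and these were moved back. Among 1520 genes with 1 transcript in GENCODE, 297 (19.5%) then had values that were whole reads at the GENCODE length, against 7 (0.461%) before. Whole reads, within 0.001, were recovered for 16439 of 16452 genes (99.92%), and served only for exact (Clopper-Pearson) intervals, with mates counted once, and for a floor of 3 reads. Of 12198 genes at 1 RPKM or more, 9 without whole reads were left out.

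Named genes are the 15 with the largest and 15 with the smallest difference, and in each list up to 6 each way plus those whose role defines it. The members and the 45 lists were chosen with earlier results of these data known, and some lists follow them. Lists are described by counts and medians, with no test. Alternatives were another pseudocount, other filters, 2 rescalings, the other jejunum library, rows as deposited, and lists left out. Computations used Python 3.11.15, numpy 2.4.6, pandas 2.3.3, scipy 1.17.1, Biopython 1.88 and matplotlib 3.10.9, and the calls were tested on simulated data. Coordinates are those of RefSeq on GRCm38, which mm10 denotes.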

Additional observations from a re-analysis of the deposited data

Results flagged for a closer look

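The library labelled sham duodenum, which enters no comparison, held 498 RPKM of Snap25, a protein of nerve terminals, and 198 RPKM of the glial protein Gfap, against 3.37 and 0.304 RPKM in VSG duodenum. It drew attention as a strong signal in a library outside the comparison.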

How the results depend on the processing

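The count of genes higher in VSG duodenum was 334 and moved to 562 with a pseudocount of 0.1 RPKM, to 206 after rescaling to 1 read total, to 202 after rescaling without the 10 highest genes, and to 218 where both jejunum libraries had to be passed, in which case the lower count was 68 in place of 116. Under the other alternatives both counts stayed within 1.5 times: 226 and 86 at a mean of 5 RPKM, 349 and 120 without a filter, 290 and 100 against sham jejunum, 273 and 110 against the mean of both jejunum libraries, 335 and 117 with rows as deposited, and 281 and 109 without the gastric, pancreatic and liver lists. Of 187 named genes, all of them called at 2-fold in the main comparison, 27 fell below 2-fold under each rescaling. The smaller pseudocount could only enlarge a difference, and dropping the filter left it unchanged. Neither of these could thus move a named gene below 2-fold. Against sham jejunum 130 of 172 held, 38 fell below 2-fold and 4 changed sign: Reg3b at 2.16, Reg3g at 2.06, Hp at 0.34 and Mmp7 at 0.18. The 172 leave out named genes that averaged under 1 RPKM over VSG duodenum and sham jejunum. Some of those left out changed sign too, such as Hpx at 0.19 and Saa2 at 0.05. Others, such as Alb at -0.05 and Saa1 at -0.08, kept their sign but were under 2-fold. With the filter applied anew against sham jejunum, 6 liver and 2 neutrophil genes were kept, and the list medians changed sign, to 0.095 and 0.61. Over the 11 liver and 6 neutrophil genes of the main comparison, the medians against sham jejunum were -0.05 and 0.08. The median of the liver list also changed sign at a mean of 5 RPKM, to 1.25. Medians nearer to 0 also changed sign against sham jejunum with the filter applied anew: xenobiotic metabolism to -0.22, vitamins to -0.033 and fatty acid oxidation to -0.015. The median of fat cell and mesothelial genes moved to 0.46 with 4 genes kept, and to 0.20 over the 7 of the main comparison. The cause was not tested. Rescaling moved 25 of 45 list medians by more than the limit used. No paired analysis was possible because each group has 1 library and the labels give no replicate numbers. With 1 library per segment no replicate could be left out, and depth limits mainly genes near 1 RPKM.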
